A study of Mus musculus with 10 samples.

Results

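*Ccr1*, *Ccr2*, *Cx3cr1*, *Cxcr4* and *Ccrl2* encode 5 chemoattractant receptors of myeloid cells. They were followed by gene symbol in a table of RNA-seq read counts of myeloid cells from inflamed mouse spinal cord, where they are 5 of 55487 genes. All 5 passed the filter on low counts, as did 13740 genes in all. The cells came from 5 young adult male C57BL/6 mice of the genotype Arg1tm1Lky, a reporter allele that places yellow fluorescent protein (YFP) under control of the *Arg1* gene. All mice had experimental autoimmune encephalomyelitis (EAE), a demyelinating disease induced here by immunization with a myelin oligodendrocyte glycoprotein peptide, and were taken at peak disease. Viable Ly6G-CD3-CD45+CX3CR1+ cells were sorted into YFP+ (ARG1+, 200000 cells) and YFP- (ARG1-, 100000 cells), so that each animal (m2, m6, m234, m235 and m236) gave 1 library of each group. Both groups therefore carried the reporter and the disease, and no healthy animal entered the comparison. CX3CR1 protein on the cell surface was part of the gate for both groups, so *Cx3cr1* transcript was read in cells already chosen for its product.

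Chemokine receptors are G protein-coupled receptors through which leukocytes follow gradients of small secreted proteins. CCR2 binds CCL2, CCL7 and CCL12 and lets classical monocytes leave bone marrow and enter inflamed tissue, including the spinal cord in EAE. CX3CR1 binds membrane-bound fractalkine (CX3CL1) made by neurons and is high on microglia and on patrolling monocytes. CCR1 binds CCL3, CCL5, CCL6, CCL7 and CCL9 on monocytes, macrophages and neutrophils. CXCR4 binds CXCL12 and holds leukocytes in bone marrow and perivascular spaces. CCRL2 is an atypical receptor that binds chemerin without signalling through G proteins and is induced in activated macrophages.

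*Ccr1*, *Ccr2*, *Cx3cr1* and *Ccrl2* lie on chromosome 9 of the mouse genome build GRCm38, and *Cxcr4* on chromosome 1. *Ccr1* (chr9:123962124-123968692, minus strand) and *Ccr2* (chr9:124101950-124113557, plus strand) are 133258 bases apart. *Ccrl2* (chr9:111054486-111057519) and *Cx3cr1* (chr9:119901616-120069879) lie apart from them, and *Cxcr4* spans chr1:128588199-128592293, all 3 on the minus strand. A 50-base read that fits more than 1 gene cannot be given to either, so stretches of 50 bases shared with other genes were counted. Of the 6758 distinct 50-base stretches of *Ccr2* transcripts, 1.91% also occur in another gene. For *Cx3cr1* the share was 1.06%, and 1.73% of its exon bases are overlapped on the opposite strand by Gm33858. For *Ccr1*, *Cxcr4* and *Ccrl2* no stretch was shared.

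The 250 bases before the transcription start of *Cx3cr1* (chr9:120068297-120068546, minus strand) and of *Cxcr4* (chr1:128592300-128592549, minus strand), from RefSeq on GRCm38.p6, are shown because these 2 receptors differed in opposite directions within the animals, as described below. Capitals mark the letters TATAAA or CCAAT on either strand. The RefSeq start used for *Cx3cr1* lies inside the gene as the count table spans it, so other starts of this gene are not covered by the window.
Cx3cr1 promoter: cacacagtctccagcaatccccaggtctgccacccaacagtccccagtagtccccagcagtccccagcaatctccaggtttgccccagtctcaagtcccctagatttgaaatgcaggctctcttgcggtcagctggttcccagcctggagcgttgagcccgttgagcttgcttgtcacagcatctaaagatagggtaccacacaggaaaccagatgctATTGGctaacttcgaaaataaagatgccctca
Cxcr4 promoter: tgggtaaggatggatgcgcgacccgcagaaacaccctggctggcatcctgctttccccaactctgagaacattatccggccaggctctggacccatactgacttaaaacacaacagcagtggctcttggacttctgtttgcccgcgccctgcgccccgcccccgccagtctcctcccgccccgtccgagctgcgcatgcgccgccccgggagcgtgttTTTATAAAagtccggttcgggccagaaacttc
The *Cxcr4* window holds TATAAA on both strands, in 2 overlapping matches, and the *Cx3cr1* window holds CCAAT once. Of 32851 mouse promoters of the same length, 12.4% hold TATAAA and 33.8% hold CCAAT. Among the same windows GAGGAA, present in 23.3%, and ACGTG, present in 16.6%, were in neither of the 2. The *Cxcr4* window has 61.2% G and C and 19 CpG pairs, and the *Cx3cr1* window has 53.6% and 4, against medians of 52.4% and 6 over all promoters.

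Total counts per library lay between 28870482 and 33826355 in ARG1+ and between 8396863 and 35455643 in ARG1-. The lowest total was that of m234 in ARG1-, and the next lowest in that group was 28212174. Levels are given in CPM, the counts of a gene scaled to a common library size (TMM), as mean ± SD over 5 libraries of a group. *Arg1*, the gene behind the sort, stood at 814 ± 174 CPM in ARG1+ against 18.4 ± 4.96 CPM in ARG1-, and no library overlapped with the other group. At a false discovery rate (FDR) below 0.05, ARG1+ cells had higher levels of 937 genes and lower levels of 845 of the 13740, by edgeR's quasi-likelihood test with Benjamini-Hochberg adjustment. This test compares the groups without regard to the animal. Because each animal gave both libraries, the same test with the animal as a block is given beside any call that it changes.

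*Ccr2*, the receptor of recruited monocytes, fell in ARG1+ cells and was the only member to pass the test between the groups. In ARG1+ it was at 233 CPM in m2, 162 in m6, 233.5 in m234, 133 in m235 and 131 in m236. In ARG1- it was at 497 CPM in m2, 382 in m6, 405 in m234, 362 in m235 and 293 in m236. The highest ARG1+ library, at 233.5 CPM, was thus below the lowest ARG1- library, and all 5 animals showed the same direction, as did 41.0% of all tested genes. The means were 178 ± 51.6 CPM in ARG1+ against 388 ± 74.1 CPM in ARG1-, a 2.17-fold lower level (log2 fold change -1.12, standard error 0.189, 95% interval -1.53 to -0.71, FDR = 0.0034 by edgeR). Groups without overlap were found for 11.3% of all tested genes. An FDR below 0.05 with a lower level in ARG1+ was found for 6.15% of them, and one with a log2 fold change below -1 as well for 0.888%. Within the animals the log2 difference ran from -1.45 in m235 to -0.80 in m234. In bulk RNA, fewer cells with the transcript and less transcript per cell cannot be told apart.

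*Cx3cr1*, the fractalkine receptor, was lower in the ARG1+ library of every animal, but its level differed so much between animals that the groups overlapped. In ARG1+ it was at 142 CPM in m2, 140.5 in m6, 233 in m234, 43.9 in m235 and 138 in m236. In ARG1- it was at 319.5 CPM in m2, 219 in m6, 565 in m234, 102 in m235 and 204.5 in m236. Animal m234 was highest and m235 lowest in both groups, and the ARG1- library of m235 was below 4 of the 5 ARG1+ libraries. The means were 140 ± 67.0 CPM in ARG1+ against 282 ± 176 CPM in ARG1-. Between the groups the log2 fold change of -1.01 (standard error 0.447, 95% interval -1.98 to -0.03) did not pass edgeR's test (FDR = 0.153). With the animal as a block it was -0.97 (standard error 0.103, 95% interval -1.20 to -0.74) and passed (FDR = 9.2e-05 by edgeR). The log2 difference within an animal ran from -1.28 in m234 to -0.57 in m236. Without the shallow ARG1- library of m234, which held the highest value, the log2 fold change between the groups was -0.59 (FDR = 0.348 by edgeR). With the block and without animal m234 it was -0.88 (FDR = 4.1e-06 by edgeR).

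**Figure D1:**
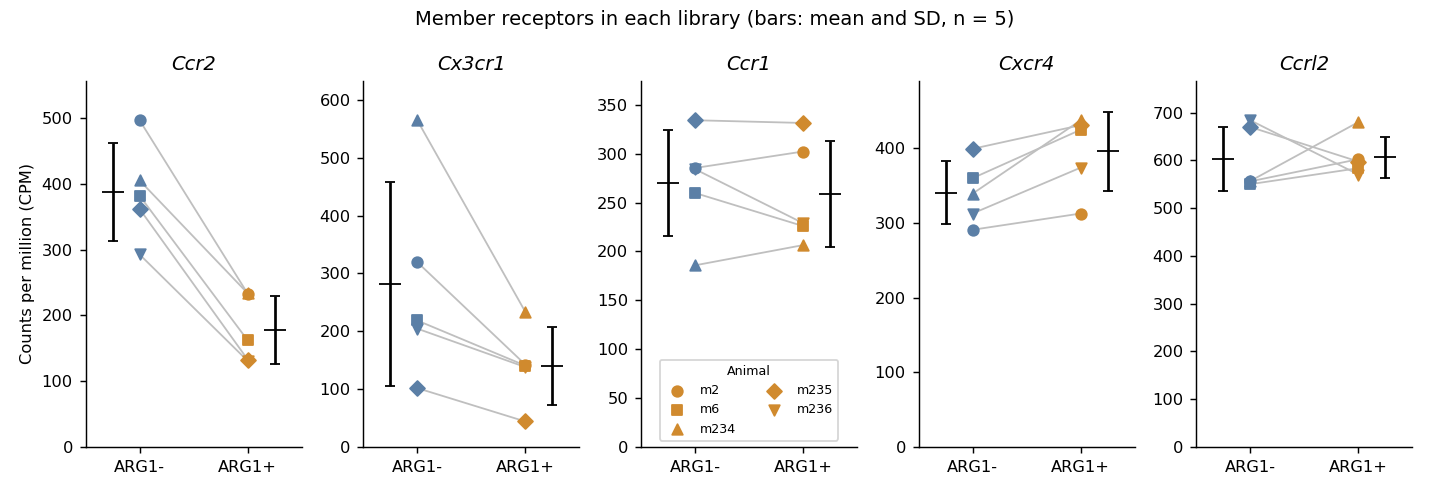
CPM (y axes, from 0) of the 5 receptors in every library of ARG1- (blue) and ARG1+ (orange) cells, with a marker shape for each animal, grey lines joining the 2 libraries of an animal, and bars for the mean and SD (n = 5). *Ccr2* and *Cx3cr1* descend in all 5 animals, *Cxcr4* ascends in all 5 and *Ccr1* and *Ccrl2* go both ways.

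The ratio of *Ccr2* to *Cx3cr1* counts within a library does not depend on how libraries are scaled. On the log2 scale it was 0.49 ± 0.69 in ARG1+ and 0.66 ± 0.82 in ARG1-, a difference of -0.17 that did not pass (p = 0.706, 2-sided exact permutation test over the libraries, n = 5). It was lower in ARG1+ in 3 of 5 animals. The linear ratio was highest in m235 in both groups, at 3.02 in ARG1+ and 3.56 in ARG1-. In ARG1+ it was 1.64 in m2, 1.15 in m6, 1.001 in m234 and 0.947 in m236. In ARG1- it was 1.56 in m2, 1.75 in m6, 0.717 in m234 and 1.43 in m236. The difference between the groups was thus smaller than the SD between the animals. Against the other members, *Ccr2* was lower in ARG1+ in every animal. The log2 ratio of *Ccr2* to *Ccr1* was -0.56 ± 0.55 in ARG1+ and 0.53 ± 0.46 in ARG1-. The ratio to *Cxcr4* was -1.19 ± 0.52 and 0.17 ± 0.37, and the ratio to *Ccrl2* was -1.81 ± 0.35 and -0.65 ± 0.41. These last 3 ratios were chosen after the levels were seen and are given without a test.

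*Cxcr4*, the CXCL12 receptor, was slightly higher in the ARG1+ library of every animal. In ARG1+ it was at 313 CPM in m2, 425 in m6, 438 in m234, 431 in m235 and 374 in m236. In ARG1- it was at 291 CPM in m2, 360.1 in m6, 339 in m234, 399.5 in m235 and 313 in m236. The groups overlapped, since m2 was lowest in both. The means were 396 ± 53.0 CPM in ARG1+ against 341 ± 42.1 CPM in ARG1-, a log2 fold change of 0.22 (standard error 0.107, 95% interval -0.01 to 0.45) that did not pass between the groups (FDR = 0.191 by edgeR). With the animal as a block it was 0.22 (standard error 0.0447, 95% interval 0.12 to 0.31) and passed (FDR = 0.0046 by edgeR). The within-animal log2 difference ran from 0.10 in m2 to 0.37 in m234.

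*Ccr1*, the receptor of several inflammatory CC chemokines, passed no test between ARG1+ and ARG1- cells. In ARG1+ it was at 302 CPM in m2, 226 in m6, 206.5 in m234, 331.5 in m235 and 229 in m236. In ARG1- it was at 285 CPM in m2, 259.9 in m6, 186 in m234, 334 in m235 and 284 in m236. It was higher in ARG1+ in 2 animals and lower in 3, and m235 was highest and m234 lowest in both groups, so that the groups overlapped. The means were 259 ± 54.5 CPM and 270.0 ± 54.2 CPM, and the log2 fold change was -0.06 (standard error 0.161, 95% interval -0.41 to 0.29, FDR = 0.833 by edgeR). Blocked by animal, the interval was -0.20 to 0.08 (FDR = 0.491 by edgeR).

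*Ccrl2*, the chemerin-binding receptor, had the smallest SD between animals, relative to its mean, of the 5. In ARG1+ it was at 602 CPM in m2, 584 in m6, 680.1 in m234, 597.5 in m235 and 570.3 in m236. In ARG1- it was at 556 CPM in m2, 550.1 in m6, 557 in m234, 669.8 in m235 and 684 in m236. The groups overlapped, and m2, m6 and m234 were higher and m235 and m236 lower in ARG1+. The means were 607 ± 42.9 CPM and 603 ± 67.4 CPM, and the log2 fold change was 0.01 (standard error 0.0817, 95% interval -0.17 to 0.19, FDR = 0.963 by edgeR), and -0.031 when libraries were scaled by total counts alone. Blocked by animal, the interval was -0.15 to 0.17 (FDR = 0.921 by edgeR).

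Between the groups, 1 of the 5 receptors was called, in the lower direction, where 6.15% of all tested genes were called lower and 6.82% higher. Blocking on the animal brought the calls to 3 of 5, where 35.1% of the tested genes were called in either direction. The same direction in all 5 animals was found for 3 of the 5 receptors, beside the 41.0% of all tested genes.

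To set the receptors beside each other, CPM were divided by the exon length of each gene in kilobases, with exons from the GENCODE annotation of the same build. *Ccrl2* was highest per kilobase, at 233.6 ± 16.5 in ARG1+ and 232 ± 25.9 in ARG1-. *Cxcr4* followed at 219.5 ± 29.4 and 189 ± 23.3, *Ccr1* at 91.4 ± 19.2 and 95.3 ± 19.1, *Cx3cr1* at 31.0 ± 14.9 and 62.6 ± 39.1, and *Ccr2* at 26.4 ± 7.63 and 57.4 ± 10.95. *Ccrl2* and *Cxcr4* were both above *Ccr1* in every library. *Ccrl2* was above *Cxcr4* in 5 of 5 ARG1- libraries but in 3 of 5 ARG1+ libraries, and their ARG1+ ranges overlapped. *Ccr1* was above *Cx3cr1* in 5 of 5 ARG1+ and 4 of 5 ARG1- libraries and above *Ccr2* in all. *Cx3cr1* and *Ccr2* had no fixed order, with *Cx3cr1* above *Ccr2* in 3 of 5 ARG1+ and 2 of 5 ARG1- libraries. The SD between animals was 48.0% of the mean for *Cx3cr1* in ARG1+ and 62.5% in ARG1-, against 7.07% and 11.2% for *Ccrl2*.

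**Figure D2:**
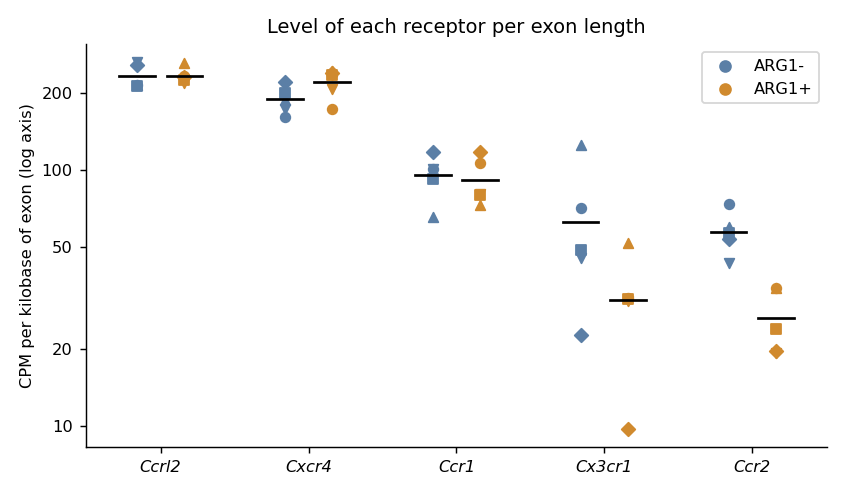
CPM per kilobase of exon (y axis, log scale) of the 5 receptors in each library, with ARG1- in blue, ARG1+ in orange, a marker shape for each animal and black lines for group means. *Ccrl2* and *Cxcr4* lie at 161 or above in every library, *Ccr1* lies between 65.6 and 118, and *Cx3cr1* spans 9.75 to 125.

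Of 21 other chemokine and chemerin receptors, 5 passed the filter, of which 1 rose, 2 fell and 2 did not pass the test. Beside this, 6.82% of all tested genes were called higher and 6.15% lower, and 11.3% had groups without overlap. *Ackr3*, an atypical receptor that scavenges CXCL12, rose 3.78-fold, from 2.49 ± 0.824 CPM in ARG1- to 9.18 ± 2.79 CPM in ARG1+ (log2 fold change 1.92, standard error 0.280, FDR = 0.0015 by edgeR). Its ARG1+ libraries lay between 5.06 and 12.4 CPM, above every ARG1- library, the highest of which was at 3.18 CPM. *Ccr7*, which guides mature dendritic cells to lymph nodes, fell from 7.28 ± 3.27 CPM to 1.07 ± 0.181 CPM (log2 fold change -2.76, standard error 0.282, FDR = 0.0002 by edgeR), with its highest ARG1+ library at 1.26 CPM and its lowest ARG1- library at 4.61 CPM. *Cmklr1*, the signalling chemerin receptor, was at 277 ± 18.0 CPM and 273 ± 30.5 CPM in ARG1+ and ARG1- (log2 fold change 0.019, -0.021 with total counts only, FDR = 0.903 by edgeR). *Cxcr3*, typical of activated T cells, was at 2.08 ± 0.797 CPM and 1.92 ± 0.318 CPM (log2 fold change 0.13, FDR = 0.766 by edgeR). The other 16 had a group mean of at most 0.828 CPM, that of *Cxcr2* in ARG1-. *Cxcr1* and *Gpr1* had no count in any library, which at 3 counts over all 10 libraries allows at most 0.0104 CPM.

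Of 12 ligands of the 5 receptors, 9 passed the filter, of which 1 rose, 1 fell and 7 did not pass. *Ccl6*, a ligand of CCR1, rose from 727 ± 231 CPM in ARG1- to 1529 ± 533 CPM in ARG1+ (log2 fold change 1.07, standard error 0.269, FDR = 0.0237 by edgeR), and was the most abundant of the list. Its groups did not overlap, as for 11.3% of all tested genes. The call was lost in 5 of 15 fits that left out a library or an animal (highest FDR 0.0903 by edgeR). *Ccl12*, a ligand of CCR2, fell from 15.1 ± 3.16 CPM to 7.99 ± 1.64 CPM (log2 fold change -0.91, standard error 0.170, FDR = 0.0058 by edgeR). The other CCR2 ligands did not pass: *Ccl2* was at 98.0 ± 34.4 CPM in ARG1+ against 103 ± 12.3 CPM in ARG1-, and *Ccl7* at 26.2 ± 8.98 CPM and 24.8 ± 5.06 CPM. Among ligands of CCR1, *Ccl9* was at 378 ± 126.5 CPM in ARG1+ against 248 ± 66.1 CPM in ARG1- (log2 fold change 0.60, FDR = 0.119 by edgeR, 4.3e-05 with the animal as a block). Without the ARG1+ library of m234 it passed between the groups too (FDR = 0.0396 by edgeR), as it did without both libraries of m234 (FDR = 0.0357 by edgeR). *Ccl5* was at 167 ± 58.7 CPM and 229 ± 63.8 CPM (log2 fold change -0.46, FDR = 0.279 by edgeR, 0.0020 with the block), and its log2 fold change was -0.29 without the ARG1+ library of m2. *Mif*, which also binds CXCR4, was at 260.4 ± 13.1 CPM and 224 ± 21.9 CPM (log2 fold change 0.22, FDR = 0.0667 by edgeR, 0.0279 with the block). With the block its call was lost without animal m2, m6 or m235 (FDR 0.0926, 0.0642 and 0.0578 by edgeR), and without animal m234 its log2 fold change was 0.14 (FDR = 0.0168 by edgeR). *Ccl3* was at 141 ± 23.2 CPM and 163 ± 95.7 CPM, and *Ccl8* at 0.839 ± 0.522 CPM and 1.14 ± 0.232 CPM, and neither passed with or without the block when all libraries were used. The log2 fold change of *Ccl3* was -0.20, and 0.22 without the ARG1- library of m234 (FDR = 0.684 and 0.316 by edgeR). With the block and an animal left out, it ran from -0.18 to 0.16, with a lowest FDR of 0.0225 by edgeR. *Cx3cl1*, *Cxcl12* and *Rarres2*, which encode fractalkine, CXCL12 and chemerin, did not pass the filter, at group means of at most 0.708 CPM. With the block, 3 of the 9 ligands were called higher and 2 lower, beside 35.1% of all tested genes in either direction.

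**Figure D3:**
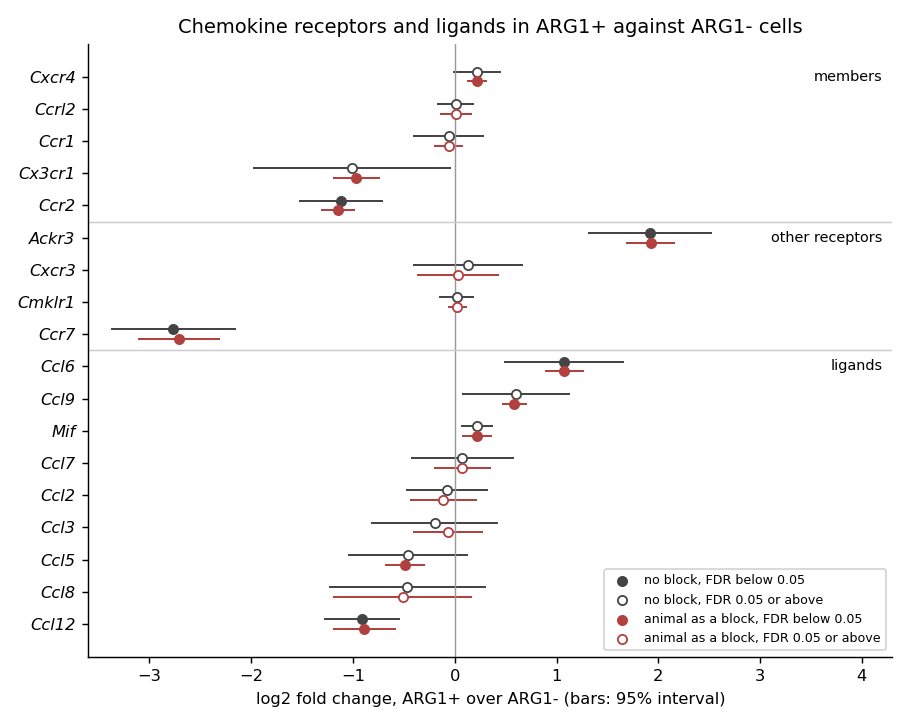
Log2 fold change (x axis, ARG1+ over ARG1-) with its 95% interval for the 5 members, 4 other receptors and the 9 ligands tested (y axis), without (grey) and with (red) the animal as a block. Filled points have an FDR below 0.05, and *Cx3cr1*, *Cxcr4*, *Ccl9*, *Ccl5* and *Mif* are filled only with the block.

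Downstream of the receptors lies shared signalling machinery. Of 17 genes for Gi proteins, phospholipase C beta, phosphoinositide 3-kinase gamma and the Rac pathway, 16 passed the filter, of which 1 rose, 1 fell and 14 did not pass, and the median log2 fold change was -0.05 against 0.00 over all tested genes. *Gng2*, a G protein gamma subunit, rose from 65.7 ± 3.37 CPM to 80.1 ± 3.65 CPM (log2 fold change 0.28, standard error 0.0519, FDR = 0.0052 by edgeR). *Elmo1*, which works with DOCK2 to activate Rac in migrating leukocytes, fell from 73.5 ± 7.79 CPM to 60.5 ± 2.48 CPM (log2 fold change -0.28, standard error 0.0690, FDR = 0.0232 by edgeR), a call lost in 5 of the 15 fits that left out a library or an animal. *Gnai2*, the most abundant of the list, was at 809 ± 25.5 CPM in ARG1+ against 844 ± 22.5 CPM in ARG1- (FDR = 0.459 by edgeR). The 14 that did not pass had log2 fold changes between -0.17 and 0.13. Under the block, 2 were called higher and 5 lower. Over all tested genes 6.82% were called higher and 6.15% lower, and 35.1% were called with the block.

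Of 12 genes whose products end receptor signalling, 11 passed the filter, of which 1 rose, 2 fell and 8 did not pass, with a median log2 fold change of -0.01. *Rgs1*, which speeds the turn-off of Gi proteins, rose from 250.2 ± 20.3 CPM to 401 ± 43.1 CPM (log2 fold change 0.68, standard error 0.0828, FDR = 0.0005 by edgeR). *Grk3*, a kinase that desensitises receptors, fell from 57.7 ± 10.7 CPM to 34.2 ± 6.15 CPM (log2 fold change -0.75, standard error 0.144, FDR = 0.0066 by edgeR). *Arrb2*, which encodes beta-arrestin, fell from 203 ± 16.6 CPM to 176 ± 4.75 CPM (log2 fold change -0.21, standard error 0.0601, FDR = 0.0418 by edgeR), a call lost in 13 of 15 fits that left out a library or an animal. *Rgs2*, the most abundant, was at 376.5 ± 48.6 CPM in ARG1+ against 354 ± 36.4 CPM in ARG1- (FDR = 0.570 by edgeR). With the block, 1 was called higher and 4 lower, beside 35.1% of all tested genes in either direction.

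Markers of the cell types that the gate could hold also differed between the groups. The 10 microglia markers, all tested, had a median log2 fold change of -1.18. Of them *P2ry13*, a nucleotide receptor, fell (log2 fold change -0.72, FDR = 0.0344 by edgeR, lost in 8 of 15 fits without a library or an animal) and 9 did not pass. Blocked by animal, 9 of 10 were called lower, as were 2519 of all 13740 tested genes. *Sparc*, the most abundant of the 10 and the one with the largest fold change, was at 58.7 ± 20.9 CPM in ARG1+ against 202 ± 241 CPM in ARG1- (log2 fold change -1.76, FDR = 0.0818 by edgeR, -1.24 and 0.0227 with the block). The ARG1- library of m234 held 628 CPM of it, and without that library the log2 fold change was -0.70 (FDR = 0.209 by edgeR). Without the ARG1- library of m235 it was -2.02 and passed (FDR = 0.0396 by edgeR). With the block the call was lost without animal m2 or m235 (FDR 0.0837 and 0.0519 by edgeR). Summed over the list, microglia markers stood at 184 to 393 CPM in ARG1+ and 261 to 1576 CPM in ARG1-. The library with the highest sum, ARG1- of m234, also had the highest *Cx3cr1*, and the 2 libraries of m235, with the lowest sums of 184 and 261 CPM, had the lowest *Cx3cr1*. The part of these cells in the *Cx3cr1* difference was not tested.

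Of the 6 classical monocyte markers, 3 fell and 3 did not pass. *Plac8* fell 4.57-fold, from 428 ± 130 CPM to 93.5 ± 37.6 CPM (FDR = 0.0007 by edgeR), and *Vcan* fell 2.01-fold (FDR = 0.0214 by edgeR, lost in 5 of 15 fits without a library or an animal). *Fn1*, the most abundant, was at 9214 ± 1884 CPM in ARG1+ against 6693 ± 1360 CPM in ARG1- and did not pass (log2 fold change 0.46, FDR = 0.0776 by edgeR, 7.9e-04 with the block). *Hp*, which encodes haptoglobin, was at 355 ± 87.1 CPM and 311 ± 102 CPM (log2 fold change 0.19, FDR = 0.611 by edgeR, 0.0217 with the block), and *Ly6c2*, which encodes the Ly6C antigen of classical monocytes, at 504 ± 199 CPM and 688.5 ± 270.4 CPM (log2 fold change -0.45, FDR = 0.339 by edgeR, 2.6e-04 with the block). With the block, 2 of the 6 were thus called higher and 4 lower, beside 2307 and 2519 of all 13740 tested genes. The summed level, most of it *Fn1*, stood at 8471 to 12740 CPM in ARG1+ and 6978 to 10020 CPM in ARG1-. It was higher in ARG1+ in all 5 animals, the opposite direction to *Ccr2*. Without *Fn1* the sum was lower in ARG1+ in all 5 animals, the same direction as *Ccr2*. It then stood at 716 to 1364 CPM in ARG1+ and 1198 to 1945 CPM in ARG1-. Of 8 dendritic cell markers 7 were tested and 5 fell, namely *Flt3* (log2 fold change -3.59), *Dpp4* (-3.55), *Kmo* (-2.38), *Zbtb46* (-1.65) and *Batf3* (-0.93, a call lost in 8 of 15 fits without a library or an animal), with summed levels of 13.03 to 29.4 CPM in ARG1+ and 25.6 to 57.8 CPM in ARG1-. *Clec9a*, the most abundant of them, was at 13.9 ± 5.68 CPM in ARG1+ against 11.8 ± 3.66 CPM in ARG1- and did not pass. With the block 6 of the 7 were called lower, as were 2519 of all 13740 tested genes. The part of monocyte and dendritic cell numbers in the *Ccr2* and *Ccr7* differences was not tested.

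**Figure D4:**
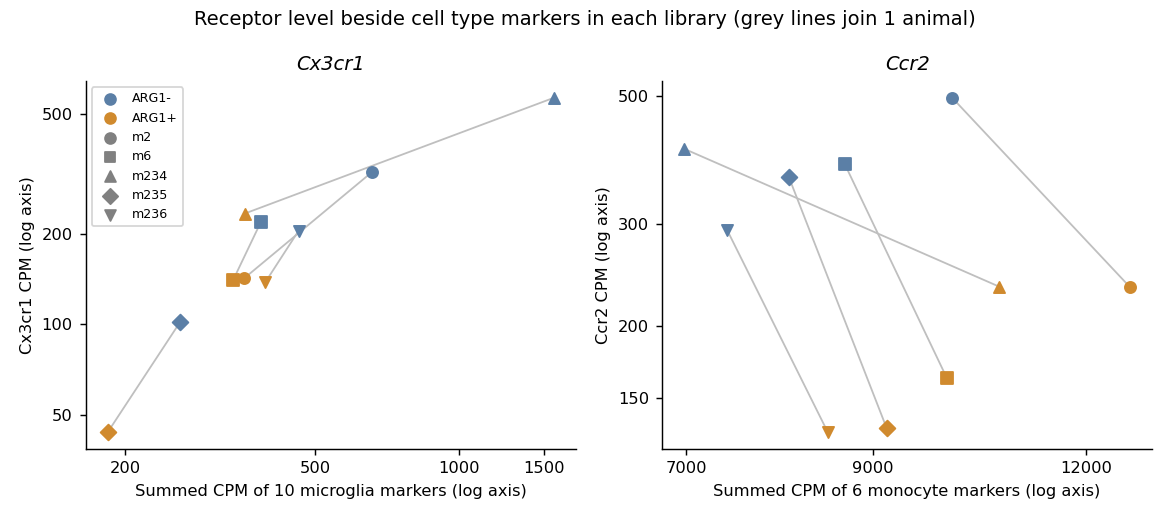
Left, *Cx3cr1* CPM against the summed CPM of 10 microglia markers, and right, *Ccr2* CPM against the summed CPM of 6 classical monocyte markers, on log axes, with ARG1- in blue, ARG1+ in orange, a marker shape for each animal and grey lines joining an animal's 2 libraries. Each animal's ARG1+ library lies below and to the left of its ARG1- library on the left, and below and to the right of it on the right. Most of the monocyte sum is *Fn1*, and without *Fn1* that sum is lower in ARG1+ in every animal.

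Markers of macrophages at the borders of the central nervous system went the other way. Of 8, 4 passed the filter and 3 rose, namely *Pf4* (log2 fold change 1.89), *Mrc1* (1.16, a call lost in 10 of 15 fits without a library or an animal) and *Stab1* (0.62). *F13a1*, the most abundant, was at 1021 ± 238.5 CPM in ARG1+ against 595 ± 193 CPM in ARG1- and did not pass (FDR = 0.0510 by edgeR, 1.6e-05 with the block), where all 4 were called higher. Of all 13740 tested genes the block called 2307 higher. *Lyve1*, *Cd163* and *Folr2*, which define these cells, were at group means of at most 0.152 CPM. The list summed to 1512 to 2362 CPM in ARG1+ and 809 to 1400 CPM in ARG1-. Lymphocyte and neutrophil transcripts were sparse. T cell markers summed to at most 2.90 CPM and NK cell markers to at most 2.08 CPM, with *Lck* the only one tested and not called. Neutrophil markers summed to 12.4 to 30.6 CPM, nearly all of it *S100a8*, which was not called (log2 fold change 0.23, FDR = 0.560 by edgeR, 0.0154 with the block). Of the B cell list, *Ighm* (log2 fold change -1.91) and *Jchain* (-2.87) were the only 2 tested. Both fell, where 6.15% of all tested genes were called lower. With the block both were again called lower, as were 2519 of all 13740 tested genes. The B cell list summed to 4.03 to 10.7 CPM in ARG1+ and 18.4 to 47.6 CPM in ARG1-. *Ms4a1* and *Pax5* were at group means of at most 0.0976 CPM.

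The genes most like each receptor were taken as the 3 with the highest Pearson correlation of log2 CPM over the 10 libraries, among 8631 other tested genes at a mean of at least 10 CPM. Libraries of the same animals share these points, and the correlations describe the libraries without a test. *Ccr2* was most like *Nfkb1* (r = 0.983), *Nfkb2* (r = 0.978) and *Dna2* (r = 0.978), all 3 of which fell in ARG1+ (log2 fold change -0.43, -0.24 and -0.86). *Nfkb1* and *Nfkb2* encode subunits of the transcription factor NF-kB, and *Dna2* a helicase and nuclease of DNA replication. *Cx3cr1* was most like *Dennd5a* (r = 0.988), *Ldlrad4* (r = 0.974) and *Otulinl* (r = 0.973), none of which was called between the groups. *Cxcr4* was most like *Mknk2* (r = 0.930), *Tgif1* (r = 0.929) and Gm15832 (r = 0.928). *Ccr1* was most like *Psmd14* (r = 0.966), *Lilr4b* (r = 0.962) and *Srp19* (r = 0.958). *Ccrl2* was most like Gm6916 (r = 0.926), *Bet1l* (r = 0.890) and *Tpi-rs11* (r = 0.887). None of these last 9 genes was called. Between the members themselves, r was 0.684 for *Ccr2* and *Cx3cr1*, -0.591 for *Ccr2* and *Cxcr4* and -0.671 for *Cx3cr1* and *Ccr1*, and 0.004 for the neighbours *Ccr1* and *Ccr2*.

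Around *Ccr1* and *Ccr2*, within 500 kb, *Lars2*, *Limd1*, *Sacm1l*, Gm10052, *Lztfl1*, *Fyco1*, 2010315B03Rik and *Ppp2r3d* were tested and not called between the groups. They had log2 fold changes between -0.28 (Gm10052, FDR = 0.0700 by edgeR) and 0.15 (*Sacm1l*, FDR = 0.0990 by edgeR). With the block Gm10052 and *Limd1* were called lower and *Sacm1l* higher. Within 500 kb of *Ccrl2*, *Prss46*, a serine protease gene at a mean of 2.19 CPM, rose (log2 fold change 1.65, FDR = 0.0034 by edgeR). *Setd2*, *Nradd*, *Nbeal2*, *Ccdc12*, *Als2cl*, Gm43814, *Lrrfip2* and *Epm2aip1* were not called and had log2 fold changes between -0.19 (*Epm2aip1*) and 0.22 (*Als2cl*), and *Setd2* and *Ccdc12* were called lower with the block.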

How the data were processed

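RNA of sorted cells was sequenced in 10 libraries. The deposited table holds raw read counts, which the authors made by aligning 50-base single-end reads to GRCm38 with STAR (2.7.10b in the submitters' processing notes) and counting over transcripts of the basic Ensembl annotation with summarizeOverlaps (Union mode), then summing to genes. The libraries kept strand, but no source says whether counting did. Totals ranged from 8396863 to 35455643. Without the block, p-values rest on the spread between the libraries of a group. With it, they rest on the spread of the differences within animals.

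A gene was tested where its CPM exceeded 1 in 3 or more libraries. The fit was edgeR 4.0.16 (R 4.3.3) with TMM, its quasi-likelihood test, no block, and Benjamini-Hochberg adjustment over all 13740 genes, with calls at an FDR below 0.05, after a check on simulated data. The methods use limma-trend, the same filter and a fold change limit. Alternatives were DESeq2 1.42.0, limma 3.58.1, other scalings and filters, that limit, the animal as a block, and omission of single libraries or animals. Libraries with the same number come from 1 animal. Their residuals from the group means correlated at 0.361 to 0.664 across genes, against -0.367 to 0.0675 between animals. Within a group the libraries' counts were further apart than sampling allows (chi-square 15.6 to 62.9 for each degree of freedom), so none was taken as a duplicate.

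The members, lists and tests were chosen with earlier results of these data known. Genes named are the members, tested receptors and ligands, the called, most abundant and most changed genes of each list, the most alike and the neighbours, and others marked or given as ranges. Exon lengths and shared stretches came from a GENCODE annotation of GRCm38, promoters from RefSeq on GRCm38.p6. Results of a few such genes are left out here, although counts and sums over a list include them.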

Additional observations from a re-analysis of the deposited data

How the results depend on the processing

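*Ccr2* was called lower in ARG1+ under every alternative run (log2 fold change -1.23 to -1.01 with a library or an animal left out, highest FDR 0.0317 by edgeR). With the animal as a replicate block, 3 of the 5 members were called, with *Cx3cr1* (-0.97) and *Cxcr4* (0.22) added, as were 4826 of all genes, 5 ligands, 7 signalling genes and 5 genes that end signalling. The block changed no other member's call. Adding the fold change limit left 199 of the 1782 genes called. DESeq2 called 2583 genes and limma-trend 1755. With total counts only, *Ccrl2* turned to -0.031 and *Cmklr1* to -0.021. The cause was not tested.

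Over fits that left out a library or an animal, including those with the block, which were chosen after the data were seen, *Cx3cr1* ranged from -1.27 to -0.59, *Cxcr4* from 0.17 to 0.29, *Ccr1* from -0.17 to 0.031 and *Ccrl2* from -0.064 to 0.079. With the block kept, *Cx3cr1* (-1.07 to -0.88) and *Cxcr4* (0.18 to 0.25) passed without any 1 animal. *Cxcr3* ranged from -0.10 to 0.26, *Cmklr1* from -0.029 to 0.069, *Ccl2* from -0.31 to 0.078, *Ccl3* from -0.33 to 0.22, *Ccl5* from -0.62 to -0.29, *Mif* from 0.14 to 0.28 and *Ccl7* from -0.083 to 0.24. Without the block 644 to 1948 genes were called and with it up to 5529. The members called ranged from 1 to 3, the ligands from 1 to 6, the signalling genes from 1 to 9 and the genes that end signalling from 2 to 5. The log2 ratio of *Ccr2* to *Cx3cr1* differed by -0.46 to 0.12 between the groups, being positive without the ARG1- library of m235. Depth was lowest in the ARG1- library of m234, at 8396863 counts.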
